A study of Mus musculus with 8 samples.

Results

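The 4 BALB libraries of this series compare the RNA of whole thymocytes with that of sorted double-positive (DP) thymocytes of the same strain. They are 2 libraries of each population, taken by the group that the sample labels give, among 8 libraries in all. The other 4 are the same populations from the strain labelled B6. All 8 came from the thymus of wild-type mice, and no group carried a transgene, a deletion or a treatment. DP thymocytes were sorted as CD4+ CD8+ cells that lacked CD69, an early activation marker, and bound little or an intermediate amount of the antibody H57, which sees the beta chain of the receptor. Whole thymocytes carried no such gate, and the labels name a live cell sorter for all samples. The labels name neither the substrain nor the age or number of animals, and they do not say whether replicates came from separate mice. Tests therefore measure only the spread between these libraries, which may be technical in some groups. The 2 BALB whole thymocyte libraries differed in sex-linked transcripts, given below, and so do not hold the same RNA. Counts in genes were 5974684 and 2632083 in the DP libraries and 3952234 and 3879807 in the whole thymocyte libraries, in order of replicate, and every pair of values below is given in that order. Levels are CPM, each count relative to the scaled total of its library, and folds are log2 of whole over DP thymocytes with the standard error of the fit.

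T cell precursors enter the thymus without CD4 or CD8 (DN cells), rearrange the beta chain of their receptor, divide, and become DP cells. DP cells then stop dividing, rearrange the alpha chain with the RAG recombinase, and die unless the receptor recognises a peptide on MHC. A signal of the right strength, called positive selection, turns them into CD4 or CD8 single-positive cells, which gain receptors for survival and exit and leave through the medulla. Whole thymocytes hold all of these stages together with gamma-delta, innate-like and regulatory T cells and a few macrophages, dendritic cells, B cells and epithelial cells. The comparison asks which transcripts the whole organ's thymocytes hold beyond, or less than, the sorted stage.

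Several libraries stood apart before any comparison. DP replicate 1 gave 3.14% of its counts to Rn45s, the precursor of ribosomal RNA, against 6.78% to 7.18% in the other BALB libraries, and the 2 DP libraries differed in composition more than the 2 whole thymocyte libraries did (chi-square per degree of freedom 17.5 against 4.27). In whole thymocyte replicate 1, Xist reached 2974 CPM and Ddx3y, Kdm5d, Uty and Eif2s3y had 0 counts. In the DP libraries Ddx3y was at 206 and 172 CPM, Kdm5d at 97.4 and 119 CPM and Uty at 93.9 and 95.1 CPM. In whole thymocyte replicate 2 Ddx3y was at 181 CPM, Kdm5d at 96.4 CPM, Uty at 71.4 CPM and Xist at 50.7 CPM. There Eif2s3y, at 8.49 CPM, was below its 69.9 to 84.1 CPM in the DP libraries. Whether that library holds RNA of more than 1 animal was not tested. The DP libraries held 4.2 and 2.33 CPM of Xist. The 2 whole thymocyte libraries thus differed in sex-linked transcripts, and the labels give no sex. Both DP libraries held Y-linked counts and whole replicate 1 held none, so sex is in part confounded with population for other genes too. The part of sex in those genes was not tested. Xist, an X-linked RNA of female cells, and the Y-linked genes are not read as differences between populations.

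Of 23420 genes listed, 11409 had enough counts to be tested, and 1961 of them (17.2%) passed an adjusted p under 0.05 in edgeR's quasi-likelihood test (Benjamini-Hochberg adjusted). Higher in whole thymocytes were 1209 genes (10.6%) and lower were 752 (6.59%), and the median over all tested genes was a log2 fold of −0.00. Counts of called members of the lists below stand against these 10.6% and 6.59%. The higher genes moved far and the lower ones little. The median fitted log2 fold of the called genes was 1.71 for the higher and −0.57 for the lower, and 540 higher but 14 lower genes were fitted at over 4-fold. Among the 1209 higher genes, 147 had no count in either DP library and a further 148 had 1 to 3. In a bulk sample, fewer cells of a type and less RNA per cell cannot be told apart. Genes called higher held 2.52% and 2.74% of the counts of the DP libraries and 5.56% and 5.31% of the whole thymocyte libraries, and genes called lower held 23.4% and 20.3% against 16.1% and 16%. In all 1961 called genes the 2 groups did not overlap, while over all tested genes both whole libraries lay above both DP libraries in 27.6% and below them in 25.1%. With upper-quartile scaling, which shifts the median of all genes to 0.06, the split was 1337 higher and 513 lower. The count was 3976 genes (1920 higher, 2056 lower) without DP replicate 2, 1158 (881 and 277) without whole replicate 1 and 1040 (779 and 261) without whole replicate 2. It was 1610 (893 higher) without DP replicate 1 and whole replicate 1 together.

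**Figure D1:**
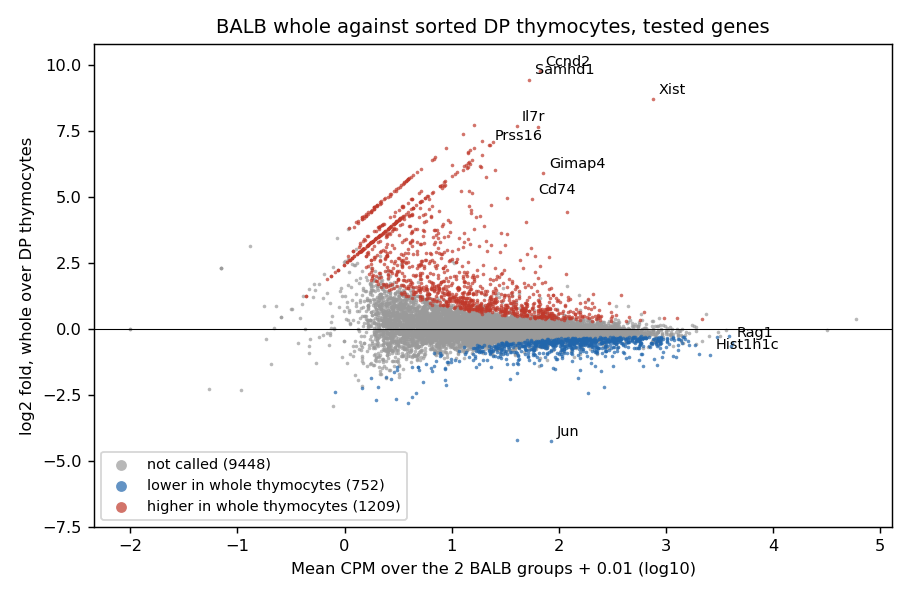
Each point is a tested gene, with its mean level over the BALB DP and BALB whole thymocyte libraries on the x axis (log10 of CPM plus 0.01) and its log2 fold of whole over DP thymocytes on the y axis. Genes without a count in 1 group are drawn at the bound of their fold. The 1209 genes called higher reach far above the axis and the 752 called lower lie in a narrow band below it, apart from Jun and a few others.

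Genes that mark the DP stage were lower in whole thymocytes, by a modest factor. Of the 24 such genes tested (all 24 found), 18 were lower, 1 was higher and 5 did not pass, with a median log2 fold of −0.45. Lower were 75% and higher 4.17%, against 6.59% and 10.6% of all tested genes. Rag1, the recombinase subunit (chromosome 2, 101638252 to 101649532; positions are those of RefSeq for GRCm38.p6), was at 4811 and 4845 CPM in DP and 3538 and 3183 CPM in whole thymocytes. Both whole libraries lay below both DP libraries, and the log2 fold was −0.52 ± 0.08. Arpp21, an RNA-binding protein abundant in DP cells, was at 2003 and 2004 CPM in DP and 1312 and 1299 CPM in whole thymocytes, with a log2 fold of −0.62 ± 0.08. Bcl2l1, the survival gene of DP cells, gave −0.73 ± 0.10, the E protein gene Tcf12 −0.58 ± 0.09, Ets2 −0.66 ± 0.10 and Themis −0.56 ± 0.10. Mogat1, an acyltransferase, had 2.45 and 0.776 CPM in DP and no count in whole thymocytes, and it was no longer called with DP replicate 1 or either whole library left out. Rag2, at 265 and 209 CPM in DP and 228 and 165 CPM in whole thymocytes, did not pass, and neither did Ccr9, Tcf3, Cd1d1 and Nwd1. The lower genes include Cd4, Cd8a and Cd8b1, whose proteins set the gate. The exception was St6gal1, a sialyltransferase, at 14.4 and 16.7 CPM in DP and 104 and 103 CPM in whole thymocytes, which was higher by a log2 fold of 2.76 ± 0.15. Among the genes given here with a log2 fold and its error, the largest adjusted p was 0.00317 (Themis) in edgeR's quasi-likelihood test (Benjamini-Hochberg adjusted). Satb1, another of the 18 lower genes, had a log2 fold of −0.27 ± 0.07 and an adjusted p of 0.0224 in the same test. The count of lower genes was 12 without whole replicate 1 and 10 without whole replicate 2. Cd8a (−0.35) was no longer called without whole replicate 1. Cd4 (−0.39) and Cd8b1 (−0.33) were no longer called without whole replicate 2, with log2 folds in brackets here and below.

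The transcripts of the coreceptors that defined the sort were present in both populations and somewhat lower in whole thymocytes. Cd8a was at 1697 and 1698 CPM in DP and 1305 and 1332 CPM in whole thymocytes (log2 fold −0.36 ± 0.08), Cd8b1 differed by −0.36 ± 0.09 and Cd4 by −0.42 ± 0.10. Cd69, whose protein the sort excluded, was at 21.5 and 17.9 CPM in DP and 51.9 and 51.2 CPM in whole thymocytes, with no overlap between the groups. As these proteins set the gate, the values check the sort and are no finding. Receptor signalling genes were called at shares near the background. Of 33 such genes tested, 5 were higher and 4 lower in whole thymocytes, or 15.2% and 12.1% against 10.6% and 6.59% of all tested genes. The median log2 fold was 0.01, and Lck, Zap70, Lat and the CD3 chain genes did not pass. Fyn, a kinase related to Lck, was higher at 0.99 ± 0.11, the adhesion receptor gene Cd2 at 0.98 ± 0.12 and the ubiquitin ligase Cblb at 0.61 ± 0.13. Ubash3b, a phosphatase that damps receptor signals, stood out at 0.526 and 0.388 CPM in DP and 13.3 and 12.2 CPM in whole thymocytes, with a log2 fold of 4.64 ± 0.64. The adaptor genes Sla2 (−0.69 ± 0.13) and Sla (−0.39 ± 0.09), which lower receptor levels in DP cells, and Cbl (−0.37 ± 0.08) were lower. For these genes the largest adjusted p was 0.0142 (Sla) in edgeR's quasi-likelihood test (Benjamini-Hochberg adjusted). Without DP replicate 2 the list gave 11 higher and 8 lower, and without whole replicate 2 it gave 3 and 3. Cbl (−0.36) was no longer called without whole replicate 1. Cblb (0.57) and Sla (−0.34) were no longer called without whole replicate 2.

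Beyond the RAG genes, the set for recombination and the joining of broken DNA ends was mixed. Of 20 genes tested, 2 were higher and 7 lower in whole thymocytes (10% and 35% against 10.6% and 6.59% of all tested genes), with a median log2 fold of −0.26. Dntt, the polymerase that adds untemplated bases at receptor joints, was at 1235 and 1142 CPM in DP and 885 and 783 CPM in whole thymocytes, with a log2 fold of −0.51 ± 0.09. The end joining genes Lig4 (−0.39 ± 0.10) and Xrcc6 (−0.37 ± 0.09) were also lower, while Prkdc, Xrcc4, Xrcc5 and Dclre1c did not pass. The chromatin genes H2afx (−1.01 ± 0.15) and Hmgb2 (−0.71 ± 0.16), which are also expressed in dividing cells, gave the lowest values. Poll, a repair polymerase, was higher, with whole over DP at 15.8 (95% counting interval 4.01 to 136). Over the calls given with values, the largest adjusted p was 0.0204 (Lig4) in edgeR's quasi-likelihood test (Benjamini-Hochberg adjusted). The number lower was 4 without whole replicate 2, and the number higher was 0 without DP replicate 1 or whole replicate 1 and 1 without whole replicate 2. Poll was no longer called without DP replicate 1. Hmgb2 (−0.53) and Poll were no longer called without whole replicate 1. Lig4 (−0.31) and Xrcc6 (−0.32) were no longer called without whole replicate 2.

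Genes induced by receptor signals during positive selection were higher in whole thymocytes. Of 20 found, 19 were tested, 13 were higher (68.4% against 10.6% of all tested genes) and 0 lower. The median log2 fold was 1.3. Itm2a, a membrane protein induced on selection, was at 11.9 and 13.2 CPM in DP and 92.7 and 84.6 CPM in whole thymocytes. The groups were far apart and the log2 fold was 2.84 ± 0.16. The orphan receptor Nr4a3 was at 1.4 and 1.16 CPM in DP and 23.4 and 34 CPM in whole thymocytes (4.4 ± 0.54), Egr3 was higher by 3.25 ± 0.56 and its corepressor Nab2 by 2.32 ± 0.19. The inhibitory receptor gene Pdcd1 gave 2.9 ± 0.38, Cd5, a brake whose level follows signal strength, 0.76 ± 0.11, and the transcription factor genes Tox and Rel 0.63 ± 0.13 and 1.43 ± 0.23. Id3, Gfi1, Cd6, Cd27, Cd28 and Nr4a2 did not pass. Without DP replicate 1, 1 member was lower. Cd69 is itself a member, and since the gate excluded its protein, its value is no finding. Across the called genes named, the largest adjusted p was 0.00756 (Tox) in edgeR's quasi-likelihood test (Benjamini-Hochberg adjusted). Tox (0.61) was no longer called without whole replicate 1. Egr3 moved to 2.3 without DP replicate 1 and 4.11 without DP replicate 2.

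Genes that thymocytes acquire as they mature were higher in whole thymocytes, at 77.3% of those tested against 10.6% of all tested genes. Of 24 such genes found, 22 were tested and 17 were higher, with 0 lower (2 without DP replicate 2) and a median log2 fold of 1.13. Il7r, the receptor chain for the survival cytokine IL-7 (chromosome 15, 9506159 to 9529941), was at 0.526 and 0 CPM in DP and 89.4 and 71.6 CPM in whole thymocytes, a ratio of 223 (95% counting interval 75.9 to 1083). Ccr7, which leads selected cells into the medulla, was at 0 and 0.388 CPM in DP and 28 and 35.9 CPM in whole thymocytes, a ratio of 264 (95% counting interval 47 to 10483). DP libraries held almost none of either, and both whole libraries stood far above them. Both genes, like S1pr1, could pass the filter on low counts only through other libraries, so the share called higher follows in part from it. Gimap4, a GTPase of mature T cells, was at 1.93 and 3.11 CPM in DP and 136 and 146 CPM in whole thymocytes (5.91 ± 0.29). Klf2, the factor that drives S1pr1, was higher by 3.14 ± 0.27 and its regulator Foxo1 by 0.72 ± 0.14. The GTPase family did not move as 1 block. Gimap3, Gimap6, Gimap7 and Gimap8 were higher, by 3.64 ± 0.23, 0.57 ± 0.14, 1.25 ± 0.33 and 0.82 ± 0.14, while Gimap1, at 150.5 and 111 CPM in DP and 111 and 120.1 CPM in whole thymocytes, Gimap5 and Gimap9 did not pass. Their sequences are alike, so that reads may be shared between members. By edgeR's quasi-likelihood test (Benjamini-Hochberg adjusted), the largest adjusted p was 0.0216 (Gimap7). Gimap6 (0.58) and Gimap7 (1.12) were no longer called without whole replicate 1. Gimap6 (0.54) and Gimap7 (1.36) were no longer called without whole replicate 2. Gimap7 moved to 1.96 without DP replicate 1.

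**Figure D2:**
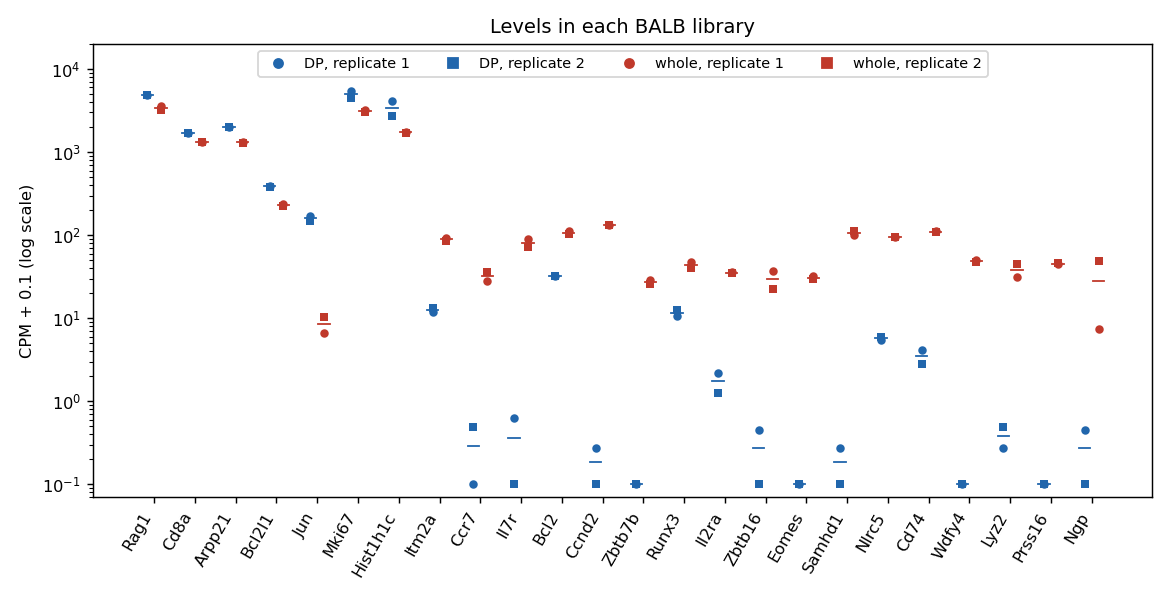
Points are CPM plus 0.1 on a log axis for selected genes in each of the 4 BALB libraries, blue for DP and red for whole thymocytes, circles for replicate 1 and squares for replicate 2, and bars are means. Points at the foot of the plot have no count. For every gene shown the 2 groups are apart, and the 2 whole libraries differ most for Ngp.

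Lineage factors separated in the same way. Zbtb7b, the factor that commits cells to the CD4 lineage (chromosome 3, 89377644 to 89393673), had no count in DP and 28.7 and 25.5 CPM in whole thymocytes, at least 74.9-fold higher, where the bound and the ratios pool the counts of both libraries of a group and the bound takes 3 counts for the DP group. Cd40lg, the helper ligand, gave a ratio of whole over DP of 47.5 (95% counting interval 15.9 to 233). Runx3, the factor of the CD8 lineage, was at 10.5 and 12.4 CPM in DP and 47.6 and 40.2 CPM in whole thymocytes (1.96 ± 0.19), and Itgae, an integrin chain it controls, was higher by 2.12 ± 0.21. Of the CD4 lineage genes, 8 of 9 were tested and 4 were higher and 3 lower in whole thymocytes; the lower ones were Cd4, Tcf7 (−0.31 ± 0.08) and Myb (−0.47 ± 0.10), and Gata3 did not pass. Lower CD4 lineage genes were 1 without whole replicate 1 and 2 without whole replicate 2. Lef1, the partner of Tcf7, was higher instead, at 490.4 and 468 CPM in DP and 741 and 768 CPM in whole thymocytes (0.65 ± 0.09). Of the CD8 lineage genes, 9 of 10 were tested and 7 were higher and 2 lower in whole thymocytes, the lower ones being Cd8a and Cd8b1. Among these 9, 2 had no DP count and could pass the filter on low counts only through other libraries. Ctsw, a protease of cytotoxic cells, was higher by 4.65 ± 0.56 and Nkg7 gave a ratio of 64.1 (95% counting interval 11.1 to 2570.1). For the called genes named the largest adjusted p was 0.0217 (Tcf7) in edgeR's quasi-likelihood test (Benjamini-Hochberg adjusted). Myb (−0.37) and Tcf7 (−0.24) were no longer called without whole replicate 1.

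Genes of regulatory T cells, a small population that restrains other T cells, were higher in whole thymocytes. Of 13 regulatory T cell genes tested, 11 were higher and 0 lower (median log2 fold 3.59). These are 84.6% and 0% against 10.6% and 6.59% of all tested genes. Members with few or no DP counts could pass the filter on low counts only through other libraries, so the share follows in part from it. Il2ra, the high-affinity chain for IL-2, was at 2.1 and 1.16 CPM in DP and 35.5 and 35 CPM in whole thymocytes, with a log2 fold of 4.27 ± 0.38. Foxp3, which defines these cells, was at 1.93 and 1.94 CPM in DP and 5.07 and 7.99 CPM in whole thymocytes, with a log2 fold of 1.74 ± 0.47, and Folr4, the file's older symbol for the receptor of regulatory cells also named Izumo1r, was at least 42.7-fold higher. Both DP libraries thus held a low level of Foxp3. Il2ra also marks DN precursors, of whose genes 13 of 17 were tested and 7 were higher (53.8%) with 0 lower. Kit, the receptor of the earliest precursors, was higher by 2.82 ± 0.53 and Dtx1, a target of Notch, by 1.88 ± 0.29. Ptcra and Notch1 did not pass, with Ptcra at 9.46 and 10.9 CPM in DP and 10.1 and 8.24 CPM in whole thymocytes. The largest adjusted p was 0.0191 (Foxp3) for the genes called here in edgeR's quasi-likelihood test (Benjamini-Hochberg adjusted). Foxp3 (1.72) was no longer called without DP replicate 1. Foxp3 (1.37) was no longer called without whole replicate 2. Il2ra moved to 4.87 without DP replicate 1. Kit moved to 4.2 without DP replicate 1.

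Innate-like T cells, which include natural killer T (NKT) cells, take on effector programs within the thymus and are known to be frequent and rich in IL-4 producers in BALB mice. Zbtb16, the factor of these programs (PLZF), was at 0.35 and 0 CPM in DP and 37 and 22.5 CPM in whole thymocytes, a ratio of 124 (95% counting interval 33.8 to 1026). Of the genes of the IL-4-producing type, 8 of 11 were tested and 7 were higher and 1 lower in whole thymocytes, the lower one being Slamf1 (−0.59 ± 0.11). Ccr4 was higher by 2.93 ± 0.24, Il17rb by 0.77 ± 0.19, and Maf and Il18r1 were at least 25.8-fold higher and at least 71.5-fold higher. Of the interferon-gamma-producing type, 7 of 12 were tested and 4 were higher with 0 lower. Il2rb, the IL-2 and IL-15 receptor chain (chromosome 15, 78479256 to 78511621), had no count in DP and 43.5 and 46.4 CPM in whole thymocytes (at least 124-fold higher), while Tbx21, at 1.93 and 2.72 CPM in DP and 2.66 and 3.99 CPM in whole thymocytes, did not pass. Of the IL-17-producing type and gamma-delta cells, 10 of 16 were tested and 6 were higher with 0 lower, among them Sox13 (4.22 ± 0.77) and Cd163l1 (at least 14.2-fold higher). Members with few or no DP counts could pass the filter on low counts only through the whole thymocyte libraries, so these counts describe the tested members and support nothing. In edgeR's quasi-likelihood test (Benjamini-Hochberg adjusted) the largest adjusted p was 0.0152 (Il17rb). Il17rb (0.48) was no longer called without DP replicate 1. Il17rb (0.83) was no longer called without whole replicate 1. Il17rb (0.68) was no longer called without whole replicate 2. Sox13 had no DP count left without DP replicate 1.

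IL-4 from such cells is known to turn CD8 thymocytes of BALB mice into memory-like cells that express Eomes. Eomes (chromosome 9, 118478186 to 118486132) had no count in the BALB DP libraries and 31.9 and 29.5 CPM in whole thymocytes, at least 84.7-fold higher. In B6 it was at 0 and 0.229 CPM in DP and 1.75 and 0 CPM in whole thymocytes. The test of whether the whole minus DP difference itself differed between strains did not pass (adjusted p = 0.473, edgeR's quasi-likelihood test (Benjamini-Hochberg adjusted)). With at most 1 count in each DP library, that test does not decide whether the strains differ. Levels of the 2 strains within whole thymocytes were not compared by a test. All 13 genes of the IL-4 and memory-like list were tested. Of these, 10 were higher (76.9% against 10.6% of all tested genes) and 0 lower. The median log2 fold was 3.22, or 2.53 with genes without a DP count at their bound. In 6 of the 13 there was no BALB DP count. Such genes could pass the filter on low counts only through other libraries, so the number called higher follows in part from it. Cxcr3, a receptor of memory T cells, was at least 11.9-fold higher, Irf4 was higher by 3.22 ± 0.62, and Cd44 was at 32.2 and 33.8 CPM in DP and 75.3 and 56.2 CPM in whole thymocytes (1.0 ± 0.17). Il4ra, Socs1 and Gzmm did not pass. Among receptors and granule genes of natural killer cells, only 7 of 28 were tested, and 5 were higher. That share too follows in part from the filter. Klrk1 was at least 18-fold higher and Prf1, a pore-forming protein, was higher by 2.03 ± 0.59, while Gzma, at 10.5 and 17.5 CPM in DP and 18.8 and 17.2 CPM in whole thymocytes, did not pass. Without DP replicate 1 the list gave 9 higher genes and 1 lower one. The largest adjusted p was 0.0273 (Prf1) among the genes called in edgeR's quasi-likelihood test (Benjamini-Hochberg adjusted). Prf1 (1.11) was no longer called without DP replicate 1. Prf1 (1.59) was no longer called without whole replicate 1. Irf4 moved to 2.11 without DP replicate 1 and 4.4 without DP replicate 2. Prf1 moved to 2.88 without DP replicate 2.

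Receptors for cytokines, chemokines and costimulation split into those that DP cells already express and those with few or no counts there. Of 28 cytokine receptor and SOCS genes tested, 12 were higher and 1 lower in whole thymocytes (median 0.49). These are 42.9% and 3.57% against 10.6% and 6.59% of all tested genes. Il6ra was higher by 2.96 ± 0.35, Il27ra by 1.62 ± 0.20 and the common gamma chain Il2rg by 0.44 ± 0.10. Ifngr1, an interferon-gamma receptor chain, was the lower one, at 430.4 and 359 CPM in DP and 275 and 318 CPM in whole thymocytes (−0.42 ± 0.12), and Il6st, Il17ra, Tgfbr1 and the type I interferon receptor genes Ifnar1 and Ifnar2 did not pass. Of 27 migration genes tested, 18 were higher and 1 lower in whole thymocytes (66.7% and 3.7%, median 1.0). Gpr183 was at 13.8 and 14.8 CPM in DP and 37.9 and 35.9 CPM in whole thymocytes (1.38 ± 0.17), the beta 7 integrin gene Itgb7 was higher by 2.31 ± 0.22 and Ccr2 by 3.44 ± 0.48. The cortical receptors Cxcr4 and Ccr9 did not pass, and Plxnd1, which holds DP cells in the cortex, was lower (−0.48 ± 0.11). Of 18 costimulatory and inhibitory receptors tested, 10 were higher and 1 lower in whole thymocytes (55.6% and 5.56%). In each of these lists some members had no DP count and could pass the filter on low counts only through other libraries. The shares called higher thus follow in part from that filter. Cd226 was at 3.63 ± 0.46, Tnfrsf4 at 1.95 ± 0.37 and Btla at least 48.1-fold higher. Cd28 was barely detected in any BALB library, at 0.526 and 0.776 CPM in DP and 0.725 and 0.25 CPM in whole thymocytes. For the genes called the largest adjusted p was 0.0288 (Ifngr1) in edgeR's quasi-likelihood test (Benjamini-Hochberg adjusted). Ifngr1 (−0.28) was no longer called without DP replicate 1. Ifngr1 (−0.32) and Plxnd1 (−0.45) were no longer called without whole replicate 1. Il2rg (0.43) and Plxnd1 (−0.52) were no longer called without whole replicate 2. Ifngr1 also lost its call (−0.42) without B6 whole replicate 1 or B6 whole replicate 2.

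A pair of survival genes of T cells went opposite ways. Bcl2, which protects mature T cells, was at 31.7 and 31.8 CPM in DP and 111 and 104 CPM in whole thymocytes, with a log2 fold of 1.75 ± 0.13, and Bcl2l1, which protects DP cells, was at 386 and 384 CPM in DP and 240.3 and 224 CPM in whole thymocytes, with a log2 fold of −0.73 ± 0.10. Neither pair overlapped. The related Bcl2a1b and Bcl2a1d, near-identical copies whose reads may not be told apart, were higher, Bcl2a1b with a ratio of 25.4 (95% counting interval 4.16 to 1044). The death gene Bmf was lower, with a log2 fold of −0.58 ± 0.14. The other 18 of 23 survival and death genes tested did not pass, among them Mcl1 at 499 and 492 CPM in DP and 433 and 457 CPM in whole thymocytes, Bax and Bcl2l11. Higher were 13% and lower 8.7% of the 23, near the 10.6% and 6.59% of all tested genes. The 2 lower genes of this list were 5 without DP replicate 2 and 1 without whole replicate 2. Of 17 p53 targets tested, 1 was higher and 2 were lower, with Mdm2 at −0.38 ± 0.11. These are 5.88% and 11.8% against 10.6% and 6.59% of all tested genes, and DESeq2 called 0, with 2 higher and 4 lower under an unadjusted p of 0.05. Lower p53 targets were 4 without DP replicate 2 and 0 with either whole library left out, and higher ones were 2 without DP replicate 2 and 0 without DP replicate 1 or whole replicate 2. Over the calls given with values, the largest adjusted p was 0.0368 (Mdm2) in edgeR's quasi-likelihood test (Benjamini-Hochberg adjusted). Bmf (−0.54) was no longer called without DP replicate 1. Bcl2a1d was no longer called without DP replicate 1 or without whole replicate 1. Mdm2 (−0.45) was no longer called without whole replicate 1. Bmf (−0.46) and Mdm2 (−0.32) were no longer called without whole replicate 2. Mdm2 also lost its call (−0.39 to −0.38) without B6 DP replicate 1, B6 DP replicate 2, B6 whole replicate 1 or B6 whole replicate 2.

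Immediate early genes, transcribed within minutes of a stimulus, moved both ways. Jun, a subunit of the AP-1 factor (chromosome 4, 95049036 to 95052222), was at 172 and 149 CPM in DP and 6.52 and 10.2 CPM in whole thymocytes, the lowest log2 fold of any called gene with counts in both groups at −4.26 ± 0.25. Fos, its partner, was at 13.7 and 14 CPM in DP and 4.11 and 3.0 CPM in whole thymocytes (−1.95 ± 0.32). Lower too were the stress gene Ppp1r15a (−1.88 ± 0.22), the phosphatase Dusp1 (−1.44 ± 0.26), Junb (−0.89 ± 0.16), Klf4, Klf6 and Zfp36, 8 of the 16 tested. The 4 higher genes were Egr1 at 48.5 and 55.1 CPM in DP and 121 and 132 CPM in whole thymocytes (1.3 ± 0.15), Nr4a1 (1.59 ± 0.19), Myc (1.82 ± 0.19) and Fosl2, with a ratio of 33.6 (95% counting interval 8.93 to 283). Btg2, Ier2, Ier5 and Maff did not pass. The 4 higher and 8 lower genes are 25% and 50% of those tested, against 10.6% and 6.59% of all tested genes. The log2 fold of Jun was −4.08 ± 0.26 and that of Fos −1.96 ± 0.37 in B6, and the labels do not say whether handling before lysis was alike for the 2 populations. Heat shock genes gave 1 higher (Hspd1, 0.62 ± 0.12) and 2 lower (Dnajb4, −0.69 ± 0.15, and Dnajb1, −0.44 ± 0.12) of 13 tested, or 7.69% and 15.4% against 10.6% and 6.59% of all tested genes. The number lower was 4 without DP replicate 2, 1 without whole replicate 1 and 0 without whole replicate 2. The largest adjusted p was 0.0292 (Dnajb1) for the calls given with values in edgeR's quasi-likelihood test (Benjamini-Hochberg adjusted). Dnajb1 (−0.41) was no longer called without whole replicate 1. Dnajb1 (−0.48) and Dnajb4 (−0.54) were no longer called without whole replicate 2.

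Genes of dividing cells were lower in whole than in DP thymocytes. Of 45 DNA replication genes tested, 18 were lower and 0 higher (median log2 fold −0.37), and of 61 mitosis genes 43 were lower and 0 higher (median −0.56). The lower ones are 40% and 70.5%, against 6.59% of all tested genes. Mki67, the proliferation marker, was at 5485 and 4426 CPM in DP and 3187 and 3061 CPM in whole thymocytes, with a log2 fold of −0.67 ± 0.10. Top2a, which untangles chromosomes, was at 2448 and 2044 CPM in DP and 1546 and 1390.0 CPM in whole thymocytes (−0.61 ± 0.10), and Ckap2, a spindle protein, at 91.5 and 78.8 CPM in DP and 44.7 and 46.4 CPM in whole thymocytes (−0.91 ± 0.14). DP replicate 1 was the highest library for each of the 3, and both DP libraries were above both whole libraries. Incenp, a scaffold of the chromosomal passenger complex, was lower with a log2 fold of −0.94 ± 0.19, the kinase gene Plk1 with −0.54 ± 0.13 and the cyclins Ccna2 and Ccnb2 with −0.56 ± 0.11 and −0.72 ± 0.13. In S phase, the cyclin Ccne2 gave −0.88 ± 0.20, the ribonucleotide reductase gene Rrm2 −0.84 ± 0.13, the ligase Lig1 −0.56 ± 0.12 and the helicase subunit Mcm6 −0.39 ± 0.11, while Pcna at 182 and 168 CPM in DP and 148 and 104 CPM in whole thymocytes, Mcm5, Mcm7 and Tk1 did not pass. By edgeR's quasi-likelihood test (Benjamini-Hochberg adjusted), the largest adjusted p was 0.0253 (Mcm6). Single libraries carried much of these counts: the 43 lower mitosis genes were 24 without whole replicate 1 and 23 without whole replicate 2, and the 18 lower replication genes were 11, 8 and 6 without DP replicate 1, whole replicate 1 and whole replicate 2. Summed over the list, mitosis genes were at 21542 and 17616 CPM in DP and 13000.5 and 12919 CPM in whole thymocytes. Ccne2 (−0.55) and Mcm6 (−0.29) were no longer called without DP replicate 1. Incenp (−0.87) was no longer called without whole replicate 1. Ccna2 (−0.54), Ccne2 (−0.82), Mcm6 (−0.32) and Plk1 (−0.49) were no longer called without whole replicate 2. Mcm6 also lost its call (−0.4) without B6 DP replicate 2, B6 whole replicate 1 or B6 whole replicate 2.

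In B6 the same lists gave almost no calls. With edgeR, DESeq2 and limma alike, 0 of the 61 mitosis genes were called there, and 1 was under an unadjusted p of 0.05 in edgeR (median log2 fold −0.01). Of the replication genes 1 was higher and 0 lower (median 0.14). Summed mitosis genes in B6 were at 13356 and 12871 CPM in DP and 12026 and 12904 CPM in whole thymocytes, so that both BALB DP libraries lay above the 6 others. In edgeR, the difference of the 2 differences was under an unadjusted p of 0.05 for 49 of the 61 mitosis genes. It was so for 28 of the 45 replication genes and for 1243 of all 11409 tested genes (10.9%). But 0 of either list passed an adjusted p under 0.05 in edgeR's quasi-likelihood test (Benjamini-Hochberg adjusted), nor in limma, and DESeq2 called 1 mitosis gene. A difference between the strains in the fold of these genes was therefore not shown gene by gene.

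Promoters of 1 replication and 1 mitosis gene are shown. They were picked by p among called genes whose promoter holds a known motif of the list. Their matches were thus a condition of the choice. The E2F factors that start S phase are known to bind near TTTNGCGC, and the DREAM and MuvB complexes of mitotic genes at the CHR element TTTGAA. RefSeq promoters (GRCm38.p6, the 250 bases before the start) were searched on both strands, and genes with a promoter in that table were counted. TTTNGCGC was present in 16.7% of the replication genes (6 of 36), in 17.6% of those called lower (3 of 17) and in 2.59% of all tested genes (219 of 8442). TTTGAA was present in 36.7% of the mitosis genes (18 of 49), in 40.5% of those called lower (15 of 37) and in 12.6% of all tested genes (1060 of 8442). A match is a description of the letters, not a bound site. In the promoter of Mcm6, on the minus strand at chr1:128359706-128359955, the capitals mark 3 matches to TTTNGCGC, of which 2 on opposite strands overlap. In that of Ckap2, on the minus strand at chr8:22185820-22186069, they mark 1 match to TTTGAA. Both are printed 5′ to 3′ along the gene.
Mcm6: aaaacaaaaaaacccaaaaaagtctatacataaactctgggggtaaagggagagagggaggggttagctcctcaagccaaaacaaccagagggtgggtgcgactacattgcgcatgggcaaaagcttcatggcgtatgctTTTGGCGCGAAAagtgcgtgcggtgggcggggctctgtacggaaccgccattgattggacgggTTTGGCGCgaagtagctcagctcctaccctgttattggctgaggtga
Ckap2: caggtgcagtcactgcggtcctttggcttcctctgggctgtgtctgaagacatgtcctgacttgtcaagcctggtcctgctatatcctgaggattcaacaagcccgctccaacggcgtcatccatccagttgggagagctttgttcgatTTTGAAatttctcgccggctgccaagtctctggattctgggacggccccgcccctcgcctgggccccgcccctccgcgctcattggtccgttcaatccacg

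**Figure D3:**
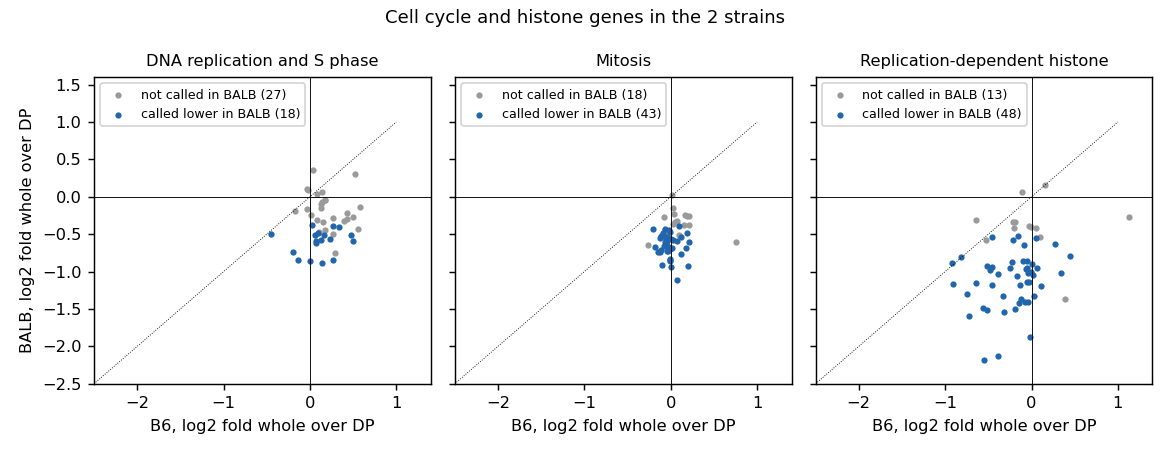
Each panel plots the members of 1 list by their log2 fold of whole over DP thymocytes in B6 (x axis) and in BALB (y axis), and the dotted line marks equal folds. Blue points are genes called lower in BALB, and most lie below the dotted line.

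Histone genes that are transcribed with DNA replication had a lower median than any other list except the sex-linked genes, at a log2 fold of −0.97. Of 68 found, 61 were tested, 48 were lower (78.7% against 6.59% of all tested genes) and 0 higher. Their messages mostly lack the poly(A) tail by which such library kits capture RNA, and Rn45s, another RNA without one, took 3.14% of counts in DP replicate 1 against 6.78% to 7.18% in the other BALB libraries. The part of RNA capture in the histone result was not tested. The linker histone Hist1h1c was at 4092 and 2701 CPM in DP and 1737 and 1713 CPM in whole thymocytes (−0.98 ± 0.15), and Hist1h1e gave −1.03 ± 0.13. The core histone Hist1h2bg was at 691 and 173 CPM in DP and 109.9 and 82.1 CPM in whole thymocytes, where DP replicate 1 was several times the other DP library and the log2 fold was −2.19 ± 0.43. Hist1h4k, at 122 and 126 CPM in DP and 68.6 and 51.2 CPM in whole thymocytes, had no such gap (−1.05 ± 0.14). Slbp, the protein that processes histone messages, was lower as well (−0.86 ± 0.20). Histone genes share sequence, and the value of a single one is uncertain. They held 2.32% and 1.81% of the counts of the DP libraries and 1.24% and 1.11% of the whole thymocyte libraries. The list gave 2 higher genes without DP replicate 2, and 49 lower genes without DP replicate 1 and 28 without whole replicate 2. In B6 6 were lower, with a median of −0.13. The largest adjusted p was 0.011 (Slbp) for the genes named here in edgeR's quasi-likelihood test (Benjamini-Hochberg adjusted). Slbp (−0.67) was no longer called without whole replicate 1. Hist1h2bg (−2.0) was no longer called without whole replicate 2. Hist1h2bg moved to −0.85 without DP replicate 1 and −2.87 without DP replicate 2.

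The D cyclins, which open the cell cycle with Cdk4 and Cdk6, differed in direction between the populations. Ccnd2 (chromosome 6, 127125162 to 127152188) was at 0.175 and 0 CPM in DP and 132 and 134 CPM in whole thymocytes, a ratio of 1099 (95% counting interval 197 to 43458), and Cdk6 was higher by a log2 fold of 0.92 ± 0.15. Ccnd3, the D cyclin of early thymocytes, was at 650.3 and 728 CPM in DP and 436 and 469 CPM in whole thymocytes and was lower, with a log2 fold of −0.61 ± 0.10. Ccnd1 and Cdk4 did not pass. The inhibitor Cdkn1b was lower (−0.46 ± 0.10), as were Cdkn2d (−0.62 ± 0.13), Btg1 and Rb1, and Cdkn1c, Cdkn2c, Tob1, Rbl1 and Rbl2 did not pass. Of the list 13.3% were higher and 33.3% lower, against 10.6% and 6.59% of all tested genes. In all, 2 were higher and 5 lower in whole thymocytes among 15 tested, and the lower ones were 3 without whole replicate 1 and 2 without whole replicate 2. Among the calls given with values, the largest adjusted p was 0.00833 (Cdkn1b) in edgeR's quasi-likelihood test (Benjamini-Hochberg adjusted). Cdkn1b (−0.46) was no longer called without whole replicate 1. Cdkn1b (−0.46) and Cdkn2d (−0.57) were no longer called without whole replicate 2.

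Interferon-stimulated genes were higher in whole thymocytes. Of 53 found, 48 were tested, 32 were higher (66.7% against 10.6% of all tested genes) and 0 lower. The median log2 fold was 1.15. No DP count was found for 2 of the 48, which could pass the filter on low counts only through other libraries. That share thus follows in part from the filter. Samhd1, a nucleotide hydrolase that blocks viral DNA synthesis (chromosome 2, 157097534 to 157135096), was at 0.175 and 0 CPM in DP and 99.5 and 113 CPM in whole thymocytes, a ratio of 879.6 (95% counting interval 157 to 34782). Oas2 and Oasl2, sensors of double-stranded RNA and their kin, were at least 36.9-fold higher and at least 33.2-fold higher, and Oas3 was at 0.701 and 1.55 CPM in DP and 10.6 and 16.5 CPM in whole thymocytes (3.75 ± 0.58). Irf9, a subunit of the factor that drives these genes, gave 1.1 ± 0.17 and Irf7 1.91 ± 0.30. Stat2, Irf1, Ifit2 and Gbp4 were among the 16 that did not pass, with Ifit2 at 91.3 and 69.5 CPM in DP and 76.8 and 74.4 CPM in whole thymocytes. Over the calls given with values, the largest adjusted p was 0.00112 (Irf9) in edgeR's quasi-likelihood test (Benjamini-Hochberg adjusted). Oas3 moved to 3.09 without DP replicate 1.

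Interferon response elements hold pairs of GAAA separated by a pair of bases. The letters GAAANNGAA were found in the promoters of 42.9% of the tested interferon genes (15 of 35), of 55% of those called higher (11 of 20) and of 7.29% of all tested genes (615 of 8442). The promoter of Oas3 lies on the minus strand at chr5:120777660-120777909 (RefSeq, GRCm38.p6). It was picked by p among called genes of the list whose promoter holds these letters, so a match was a condition of the choice. The capitals mark 2 overlapping matches on the strand of the gene.
Oas3: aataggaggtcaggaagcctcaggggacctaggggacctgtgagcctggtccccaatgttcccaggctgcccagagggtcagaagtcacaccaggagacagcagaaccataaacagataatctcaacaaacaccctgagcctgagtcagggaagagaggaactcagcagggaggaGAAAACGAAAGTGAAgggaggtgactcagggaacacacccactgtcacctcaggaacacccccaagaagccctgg

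Genes of MHC class I, which presents peptides of the cell's own proteins, were in part higher. Of 23 genes of presentation tested, 12 were higher (52.2% against 10.6% of all tested genes) and 0 lower (median 0.46). H2-K1 was at 12.1 and 12.4 CPM in DP and 82.6 and 65.7 CPM in whole thymocytes (2.6 ± 0.17), B2m, the shared light chain, was at 82.3 and 63.7 CPM in DP and 165 and 174 CPM in whole thymocytes (1.2 ± 0.14) and the peptide editor Tapbp gave 1.29 ± 0.15. Nlrc5, the transactivator of these genes, was at 5.43 and 5.82 CPM in DP and 94.2 and 93.9 CPM in whole thymocytes, with a log2 fold of 4.07 ± 0.19. The transporters Tap1 and Tap2 and the immunoproteasome subunits Psmb8, Psmb9 and Psmb10 did not pass. Class I genes are near copies of each other and differ between strains, and reads of BALB were aligned to a reference of another haplotype, so levels of single members are uncertain. Higher genes were 7 without whole replicate 2. For the called genes the largest adjusted p was 0.00017 (B2m) in edgeR's quasi-likelihood test (Benjamini-Hochberg adjusted).

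Transcripts of cells other than thymocytes were also higher in whole thymocytes. Of 12 genes of MHC class II, which serves antigen-presenting cells and thymic epithelium, 9 were higher and 0 lower (median 4.62, or 3.77 with genes without a DP count at their bound). The 9 are 75%, against 10.6% of all tested genes. Of the 12, 2 had no DP count and could pass the filter on low counts only through other libraries. That share thus follows in part from the filter. Cd74, the invariant chain, was at 4.03 and 2.72 CPM in DP and 111 and 109 CPM in whole thymocytes (4.93 ± 0.30), Ciita, the master regulator of the class, gave 2.63 ± 0.33, H2-Ab1 gave 3.23 ± 0.30 and H2-Eb1 was at least 61.4-fold higher. H2-Ea-ps, the alpha chain that mice of the b haplotype are known not to transcribe, was at 0.701 and 0.388 CPM in DP and 23.4 and 24.2 CPM in whole thymocytes in BALB and at 0 counts in all 4 B6 libraries. The letters CCAAT are part of the conserved class II promoter, where the factor NF-Y binds. They were present in 87.5% of the tested class II genes with a promoter (7 of 8), in 80% of those called higher (4 of 5) and in 40.5% of all tested genes (3416 of 8442). The promoter of H2-Eb1, on the plus strand at chr17:34305617-34305866 (RefSeq, GRCm38.p6), holds 2 matches on opposite strands, in capitals. It was picked among called genes whose promoter holds a match. The largest adjusted p was 0.000145 (Ciita) for the class II genes called in edgeR's quasi-likelihood test (Benjamini-Hochberg adjusted).
H2-Eb1: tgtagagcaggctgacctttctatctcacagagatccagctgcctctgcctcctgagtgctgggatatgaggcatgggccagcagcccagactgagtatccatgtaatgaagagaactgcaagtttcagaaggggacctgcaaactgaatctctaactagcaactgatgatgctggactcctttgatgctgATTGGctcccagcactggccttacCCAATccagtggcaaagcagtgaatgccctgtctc

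Markers of dendritic cells, macrophages and epithelium followed. Summed over each list, conventional dendritic cell genes were at 9.46 and 10.1 CPM in DP and 127 and 127 CPM in whole thymocytes, macrophage genes at 40.5 and 32.6 CPM in DP and 301 and 352 CPM in whole thymocytes and cortical epithelial genes at 82.5 and 79.6 CPM in DP and 189 and 232 CPM in whole thymocytes. The whole libraries were above the DP libraries in each case. Higher were 8 of the 9 dendritic cell genes tested (15 found), 13 of 14 macrophage genes (19 found), 7 of 8 cortical epithelial genes (13 found) and 4 of 6 medullary ones (15 found), with 0 lower. Members this low in DP were tested only because they were high in whole thymocytes, so these shares follow in large part from the filter and support nothing. Without a count in DP were, among others, Clec9a, Mertk, Slc40a1, Emr1, C1qb, Prss16, Aire. Wdfy4, needed for cross-presentation by dendritic cells (chromosome 14, 32959547 to 33193855), was at least 135-fold higher, with 50.7 and 46.9 CPM in whole thymocytes. It is also expressed by B cells. Lyz2, lysozyme of macrophages, gave a ratio of 157 (95% counting interval 43.1 to 1303), C1qb, of the complement that thymic macrophages make, was at least 24.1-fold higher, and Apoe was at 22.4 and 20.2 CPM in DP and 129.9 and 154 CPM in whole thymocytes (2.72 ± 0.15). Prss16, a protease of cortical epithelium (chromosome 13, 22002176 to 22009741), was at least 124-fold higher, and Aire, which lets the medulla display tissue antigens, was at least 8.14-fold higher from 2.66 and 3.25 CPM. The part of these cells in the interferon, class I and class II results was not tested. By edgeR's quasi-likelihood test (Benjamini-Hochberg adjusted), the largest adjusted p was 0.00332 (Aire).

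B cell genes were summed at 18.7 and 22.1 CPM in DP and 96.4 and 73.9 CPM in whole thymocytes. Of 13 B cell genes tested, 9 were higher and 0 lower, but 3 without DP replicate 1 and 5 without whole replicate 1. Ms4a1, which encodes CD20, gave a ratio of 34.6 (95% counting interval 5.8 to 1405), and Igj, the joining chain of secreted antibody, was at 0 and 0.776 CPM in DP and 36.2 and 27 CPM in whole thymocytes. Granulocyte genes were summed at 1.93 and 0.776 CPM in DP and 31.9 and 180.2 CPM in whole thymocytes, so that whole replicate 2 held several times the level of whole replicate 1. Ngp, a neutrophil granule protein, was at 0.35 and 0 CPM in DP and 7.25 and 49.2 CPM in whole thymocytes and Ltf, lactoferrin, at 0 and 0 CPM in DP and 5.07 and 37.9 CPM in whole thymocytes. Of 13 granulocyte genes found 4 passed the filter, through the whole thymocyte libraries, and that these were called higher follows from it. The number called was 9 without whole replicate 1 and 8 without DP replicate 2, where the filter tested more of them. Of 5 plasmacytoid dendritic cell genes tested, 3 were higher. Haemoglobin transcripts were low, with Beta-s, the file's symbol for Hbb-bs, at 0.175 and 1.55 CPM in DP and 11.6 and 17.2 CPM in whole thymocytes (4.47 ± 0.80). For the called genes of this group the largest adjusted p was 0.00416 (Ltf) in edgeR's quasi-likelihood test (Benjamini-Hochberg adjusted). Beta-s moved to 3.18 without DP replicate 1 and 6.11 without DP replicate 2.

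**Figure D4:**
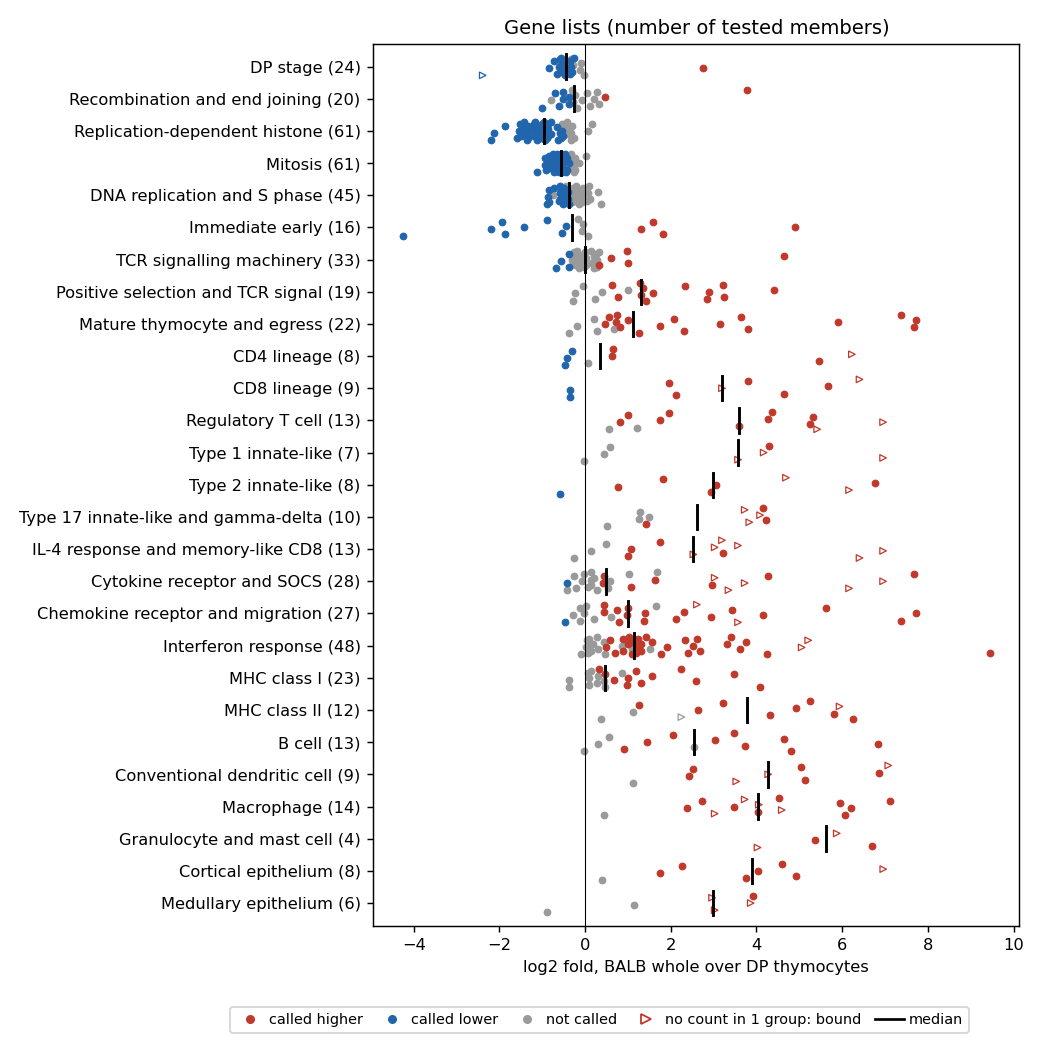
Each row is a gene list and each point 1 tested member at its log2 fold of BALB whole over DP thymocytes, red where called higher, blue where called lower and grey otherwise. Open triangles stand at the bound of genes without a count in 1 group, and black bars are medians with those genes at the bound. DP stage, mitosis, replication and histone lists lie left of 0, receptor signalling genes lie at 0, and lists of mature, rare and non-thymocyte cells lie to the right.

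Metabolic and ribosomal genes gave few calls, and these turned on single libraries. Glycolysis genes were called at shares near the background, 17.6% higher and 5.88% lower against 10.6% and 6.59% of all tested genes. Of 75 cytosolic ribosomal protein genes tested, 3 were higher and 0 lower (median 0.1), among them Rpl3 (0.48 ± 0.10), against 10 with either DP library left out and 1 without whole replicate 2. The number lower was 15 without DP replicate 2 and 1 without whole replicate 1. Of 69 nuclear genes of oxidative phosphorylation, 7 were lower and 0 higher (median −0.27), which is 10.1% against 6.59% of all genes, with Cox6c at 102 and 43.5 CPM in DP and 36.7 and 29 CPM in whole thymocytes. DP replicate 1 alone was high for that gene, and the 7 calls became 0 without DP replicate 1, 29 without DP replicate 2, 2 without whole replicate 1 and 0 without whole replicate 2. Of 17 glycolysis genes, 3 were higher and 1 lower in whole thymocytes, with Aldoa at 0.67 ± 0.14 and the glucose transporter Slc2a1 at 0.76 ± 0.21, and 1 was higher without whole replicate 1 and 0 without whole replicate 2. The lower glycolysis genes were 2 without DP replicate 2 and 0 with either whole library left out. 0 genes of 24 tested in cholesterol synthesis were called by edgeR, DESeq2 or limma, and 2 were under an unadjusted p of 0.05 in edgeR (median −0.15), but 3 were lower without DP replicate 2 and 1 without DP replicate 1. In edgeR's quasi-likelihood test (Benjamini-Hochberg adjusted) the largest adjusted p was 0.0286 (Slc2a1). Cox6c (−0.41) and Slc2a1 (0.65) were no longer called without DP replicate 1. Cox6c (−1.37) and Slc2a1 (0.81) were no longer called without whole replicate 1. Aldoa (0.5), Cox6c (−1.03), Rpl3 (0.36) and Slc2a1 (0.7) were no longer called without whole replicate 2.

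Outside the lists, Ahnak, which encodes a giant scaffold protein, was at 12.1 and 8.15 CPM in DP and 242 and 219.7 CPM in whole thymocytes (4.43 ± 0.18). The cytoskeletal linker Macf1 was at 1843 and 1888 CPM in DP and 2516 and 2378 CPM in whole thymocytes (0.39 ± 0.08), Utrn, the homologue of dystrophin, at 818 and 845 CPM in DP and 1081 and 1122 CPM in whole thymocytes (0.41 ± 0.09), and Chd3, a chromatin remodeller, at 256 and 190.2 CPM in DP and 484 and 606 CPM in whole thymocytes (1.28 ± 0.14). Among abundant lower genes, Ptma, which encodes prothymosin alpha, was at 2406 and 985 CPM in DP and 700.1 and 905 CPM in whole thymocytes (−1.08 ± 0.29) and the histone chaperone Anp32e at 1779 and 576 CPM in DP and 434 and 476 CPM in whole thymocytes (−1.38 ± 0.34). In these 2, DP replicate 1 was far above the other DP library. By fold, Adam19, a metalloprotease, was at least 79.3-fold higher and Igfbp4, which binds insulin-like growth factors, at least 77.3-fold higher. Rprl2, an RNA gene, was at 187 and 438 CPM in DP and 67.6 and 47.9 CPM in whole thymocytes in BALB (−2.42 ± 0.32) and at or below 0.628 CPM in the 4 B6 libraries. The largest adjusted p was 0.0243 (Ptma) among the calls outside the lists in edgeR's quasi-likelihood test (Benjamini-Hochberg adjusted). Ptma (−0.3) was no longer called without DP replicate 1. Anp32e (−1.32) and Ptma (−0.91) were no longer called without whole replicate 1. Anp32e (−1.45), Ptma (−1.28) and Utrn (0.37) were no longer called without whole replicate 2. Anp32e moved to −0.34 without DP replicate 1 and −1.99 without DP replicate 2. Rprl2 moved to −1.72 without DP replicate 2.

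Most BALB differences had the same sign in B6, where the comparison rests on other libraries. Of the 1209 genes higher in BALB whole thymocytes, 1136 (94.0%) had a positive log2 fold in B6, against 50.2% of all tested genes, and their B6 median was 1.10. Of the 752 lower genes, 610 (81.1%) were negative in B6, against 49.7% of all, and their B6 median was −0.25. By list, B6 gave 16 lower DP stage genes (median −0.53), and 12 positive selection, 12 mature thymocyte and 24 interferon genes were higher. A test of whether the whole minus DP difference itself differed between the strains called 14 genes (0.123%) and found 1243 at an unadjusted p under 0.05. Of the 14, 12 had the larger rise in BALB, and in each of these 12 both BALB DP libraries were below both B6 DP libraries. That order is favoured by the choice of these genes, because a lower BALB DP level enlarges the difference tested. Its share over all tested genes was not counted. Kbtbd11, a BTB domain protein, was at 1.4 and 2.33 CPM in DP and 45.6 and 43.9 CPM in whole thymocytes in BALB and at 19.1 and 18.3 CPM in DP and 62 and 65.3 CPM in whole thymocytes of B6. The log2 fold was 4.69 ± 0.32 in BALB and 1.77 ± 0.16 in B6 (difference 2.92 ± 0.36, adjusted p = 0.00502, edgeR's quasi-likelihood test (Benjamini-Hochberg adjusted)). Pde3b, a phosphodiesterase, was at 21.4 and 22.5 CPM in DP and 96.6 and 97.1 CPM in whole thymocytes in BALB and at 86.3 and 83.9 and 119 and 108 CPM in B6. For both genes the strains lay closer in whole thymocytes than in DP thymocytes, in the same values by which the genes were chosen. The sialic acid enzymes St6gal1 and Cmah were among the 12, with differences of 1.71 ± 0.20 and 1.8 ± 0.21. The number called fell to 0 without B6 whole replicate 2 (754 genes at an unadjusted p under 0.05) and rose to 47 without BALB DP replicate 1 and 1311 without BALB DP replicate 2.

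**Figure D5:**
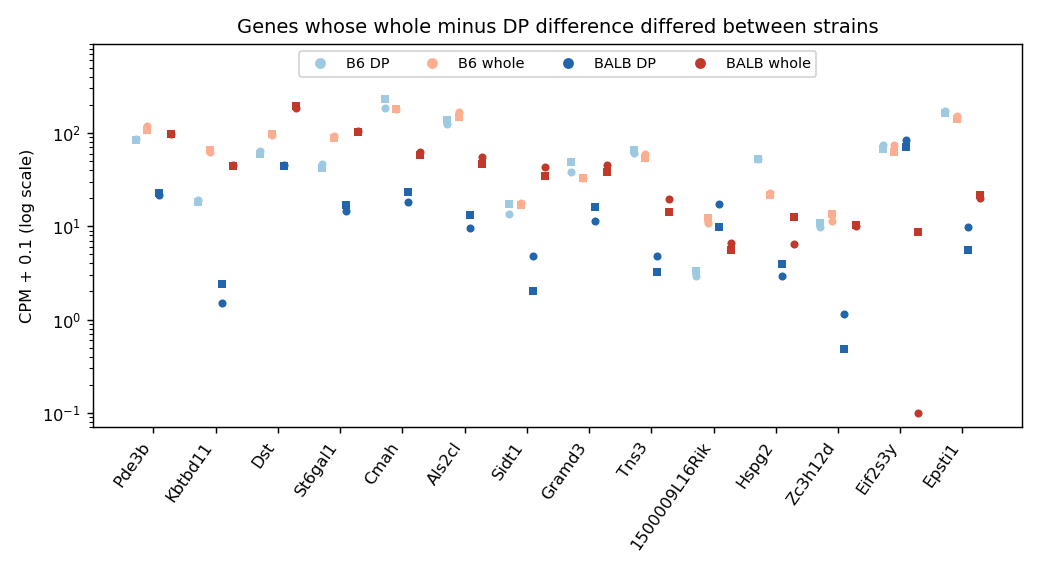
Points are CPM plus 0.1 on a log axis in each of the 8 libraries for the 14 genes whose difference between whole and DP thymocytes differed between strains, pale for B6 and dark for BALB, blue for DP and red for whole thymocytes. The dark blue points of BALB DP stand lowest for most of the genes, and the lowest point, of Eif2s3y, belongs to the library without Y-linked counts.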

How the data were processed

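RNA of whole and DP thymocytes of BALB and B6 mice was sequenced after library preparation with an unstranded kit (TruSeq RNA Sample Prep Kit v2, per the labels). The deposited files hold raw counts of reads per gene, and HISAT2 2.2.0, HTSeq, DESeq2 1.42.1 and the build mm10 are named by the submitters' processing notes. For the authors' annotation and filters the sources used here give nothing. Without strand, reads of overlapping genes cannot be told apart. HTSeq's summary rows stayed out of library sizes, so that 30.8%, 23.5%, 24.0% and 23.9% of the reads in the BALB files (DP replicates 1 and 2, then whole) were counted in genes.

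Counts were scaled by TMM and tested with edgeR 4.0.16 (quasi-likelihood F test, R 4.3.3) in 1 fit of the 4 groups of 2 libraries, with genes kept by filterByExpr and Benjamini-Hochberg adjustment over all 11409 genes tested. Whole minus DP was tested in BALB, in B6, and as the difference of both. Standard errors come from the same fit. The code was tested on simulated data. Genes without a count in a group were set at 3 counts over the group, and those with 1 to 3 counts got an exact 95% counting interval, which covers counting error only. Limma 3.58.1, DESeq2 1.42.0, other scalings and filters, a replicate block and leaving out each library were alternatives.

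The comparison, the 42 gene lists and the tests were chosen with earlier results of these data known. Genes were named by rule: in each direction the 12 largest folds among called genes of at least 5 CPM, the 10 largest differences in CPM, up to 5 members of each list by p, 8 genes of the strain difference, and a short list of stage genes. Other members named with values were chosen after their values were seen. Promoters and gene positions came from RefSeq tables of GRCm38.p6, and 11365 tested genes had a position. Same-numbered libraries did not deviate together (correlation 0.0105 between BALB DP and whole), and the labels do not pair them.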

Additional observations from a re-analysis of the deposited data

Results flagged for a closer look

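For 14 genes the log2 fold of whole over DP thymocytes in BALB differed from that in B6 in the interaction test of edgeR (quasi-likelihood, Benjamini-Hochberg adjustment). The difference, BALB minus B6, was 1.73 for Pde3b, 2.92 for Kbtbd11, 1.419 for Dst, 1.71 for St6gal1, 1.80 for Cmah and 1.97 for Als2cl, each with an adjusted p of 0.00502 in edgeR. It was 3.19 for Sidt1, 2.08 for Gramd3, 2.18 for Tns3, 2.80 for Hspg2, 3.27 for Zc3h12d and 1.55 for Epsti1, with adjusted p values in edgeR between 0.00574 and 0.0486. All 12 had a positive fold in BALB and lower levels in both BALB DP libraries than in both B6 DP libraries. The choice of genes by this test favours that order.

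In some of these genes the strains also differed in whole thymocytes. Epsti1 was at 9.64 and 5.44 CPM in BALB DP and 19.8 and 21.7 CPM in BALB whole thymocytes, and at 173 and 164 CPM in B6 DP and 151 and 142 CPM in B6 whole thymocytes. Cmah, the enzyme that makes the sialic acid Neu5Gc, was at 18.0 and 23.3 CPM in BALB DP and 63.0 and 57.4 CPM in BALB whole thymocytes, and at 187 and 232 CPM in B6 DP and 181 and 179 CPM in B6 whole thymocytes.

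The reverse was seen for 1500009L16Rik (difference −3.14) and Eif2s3y (−4.16). 1500009L16Rik was at 17.3 and 9.71 CPM in BALB DP and 6.52 and 5.49 CPM in whole thymocytes, and at 2.83 and 3.20 CPM in B6 DP and 10.75 and 12.1 CPM in whole thymocytes. Eif2s3y is Y-linked, and because the BALB whole libraries differ in sex-linked transcripts its value is not read as a difference between populations or strains. It was at 84.1 and 69.9 CPM in BALB DP and at 0 and 8.49 CPM in BALB whole thymocytes, and between 62.6 and 74.5 CPM in the 4 B6 libraries.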

How the results depend on the processing

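The 1961 genes called became 910 with a stricter low-count filter and 1101 in a fit of the 4 BALB libraries alone, and leaving out 1 library gave 1040 to 3976. The 1209 higher genes became 547 with the stricter filter, and 779 to 1920 with 1 library left out. The 752 lower genes became 363 with the stricter filter, 459 with DESeq2 and 232 in the BALB libraries alone, and 261 to 2056 with 1 library left out. The 14 genes of the strain difference became 364 without a filter, 24 with DESeq2, 8 with limma-voom and 23 with robust estimation. They became 139 without both libraries that stand apart, an alternative chosen after seeing the data, and 0 to 1311 with 1 library left out. A fit with the replicate number as a block called 1777 genes (1137 higher, 640 lower) and 11 for the strain difference, and it shared 89.2% of the reported calls. The numbers only name the libraries. Over 285 values of named genes, 4862 of 5290 alternative values kept their direction and side of the threshold, 351 lost and 62 gained significance, 15 of genes that were not called changed sign, and 0 called genes reversed. With 2 libraries a group and 2632083 to 5974684 counts each, a group without a count still allows up to 0.362 CPM (DP) or 0.368 CPM (whole). Causes of these shifts were not tested.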

Other observations

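Natural killer receptor genes and effector cytokines lay mostly below the filter on low counts. Of 28 such receptor and cytotoxic genes 7 were tested, and Il4, Ifng and Il17a were not.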
